A study of Mus musculus with 18 samples.

Results

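Loss of TIMP3 in the kidney 3 days after a sham operation was described by setting 3 TIMP3-/- sham arrays against 3 WT sham arrays, 6 of the 18 arrays of the series. The arrays were chosen by the genotype and operation in their titles, and no measured value entered the choice. TIMP3-/- mice are null for Timp3, WT mice are wild type, and both are C57BL/6 by the labels. Sham mice had the surgery of the obstructed mice except that the right ureter was not tied, and the right kidney was frozen for RNA. Where a second look was useful, 3 TIMP2-/- sham arrays (mice without Timp2, the same sham operation) and the 3 TIMP3-/- UUO and 3 WT UUO arrays (unilateral ureteral obstruction, the right ureter tied off for 3 days) were used. The labels call the arrays of a group biological replicates, without saying how the null alleles were made, in which cells and exons they act, or the age and sex of the mice.

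TIMP3, tissue inhibitor of metalloproteinases 3, is a secreted protein that stays bound to the extracellular matrix. It blocks matrix metalloproteinases and several ADAM and ADAMTS proteases, among them ADAM17, the sheddase that frees tumour necrosis factor from the cell surface, and it also keeps VEGF from binding its receptor VEGFR2. By holding back these proteases it limits both matrix turnover and the release of membrane-bound cytokines and growth factors. The comparison asks which transcripts differ before any obstruction is added.

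RNA was hybridised to Affymetrix Mouse430A_2 arrays, on which a probe set is a group of probes for 1 transcript region. The deposited values were intensities, arbitrary units of brightness, of 22626 probe sets after 64 control probe sets were left out. Their median was 201 to 214 on the TIMP3-/- sham arrays and 210 to 213 on the WT sham arrays, and the 25th percentile was 61.2 to 64.2 in TIMP3-/- sham and 60.8 to 63.8 in WT sham. Proximal tubule markers were bright in both groups, with 25 measured markers summing to 350500 to 361700 in TIMP3-/- sham and 354100 to 369900 in WT sham, which fits the labelled tissue. The number of arrays, 3 per group, limits the precision, and p-values rest on the spread within groups pooled over all 18 arrays.

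The sham arrays differed along 1 strong axis, which was not separate from genotype. With Timp3 left out, component 1 of a principal component analysis of the 9 sham arrays held 68.9% of their variance. WT sham 3 lay at -77.3, far from WT sham 1 and 2 at -20.9 and -20.2, and TIMP3-/- sham 1 lay at -25.4, beside those WT arrays and away from TIMP3-/- sham 2 and 3 at 33.7 and 30.3. The TIMP2-/- sham arrays lay at 6.26, 14.9 and 58.7, all above every WT sham array. TIMP3-/- sham 1 correlated at 0.983 and 0.984 with the other TIMP3-/- sham arrays and at 0.991 and 0.994 with WT sham 1 and 2. The 3' to 5' ratio of the actin control probe sets, a sign of RNA integrity, was 1.40 to 1.46 in TIMP3-/- sham and 1.49 to 1.52 in WT sham. The same ratio for Gapdh overlapped, at 0.924 to 0.952 in TIMP3-/- sham and 0.943 to 0.947 in WT sham. Without WT sham 3, 229 of 12393 genes (1.85%) were higher and 119 (0.96%) lower at an unadjusted p under 0.05, against 575 (4.64%) and 729 (5.88%) with it.

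TIMP3 loss left the sham kidney profile with few differences that passed the test. In the limma model of all 18 arrays, 10 of 22626 probe sets (0.0442%) passed at a Benjamini-Hochberg adjusted p under 0.05. All 4 that fell were the Timp3 probe sets. Of the 6 that rose, 4 belong to Zbtb7a, Nedd4, Dnmt3a and Jmy, and the other two carry no gene symbol in the platform annotation. The median log2 difference over all probe sets was 0.09, so small positive values are the middle of the distribution.

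Timp3 itself was read by 4 probe sets. The brightest of them, 1449335_at, gave intensities of 60.8, 41.7 and 45.1 in TIMP3-/- sham 1 to 3, against 6198, 7263 and 9040 in WT sham 1 to 3. The TIMP3-/- values lay below the 25th percentile of each array, while the WT values lay above the 75th percentile of each array (725 to 753), and the groups were far apart. No background level was measured, so how much of the TIMP3-/- intensities is background is not known. The measured log2 difference was -7.25 ± 0.21 (standard error, SE, limma adjusted p = 2.67e-12), and the other 3 probe sets gave -7.36, -6.81 and -6.66. Any background in the TIMP3-/- values would make these differences smaller than the true loss. TIMP2-/- sham kidneys kept Timp3 at 3171 to 5668, and the lower level there than in WT sham did not pass (log2 -0.79, adjusted p = 0.143). Which part of the gene was deleted was not given, so the position of the probes against the deletion was not checked.

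The largest rise was on a probe set without a gene symbol, 1456319_at. It read 474, 301 and 481 in TIMP3-/- sham, against 121, 105 and 78.3 in WT sham. The lowest TIMP3-/- array lay well above the highest WT array, and the log2 difference was 2.04 ± 0.25 (adjusted p = 0.00222). A further probe set without a symbol, 1427037_at, read 308, 405 and 264 in TIMP3-/- sham, against 149, 149 and 88.8 in WT sham, a log2 difference of 1.36 ± 0.19 (adjusted p = 0.0120). It too had no overlap between the genotypes.

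Zbtb7a, a zinc-finger repressor of transcription that acts in blood cell differentiation, was the only gene besides Timp3 that passed on its brightest probe set. Intensities were 434, 436 and 448 in TIMP3-/- sham, against 226, 230 and 209 in WT sham. Replicates of each genotype lay close together, 439 ± 7.31 in TIMP3-/- sham and 222 ± 10.8 in WT sham (SD, n = 3), and the log2 difference was 0.99 ± 0.14 (adjusted p = 0.0145 in limma). The gene has 1 probe set on the array.

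Nedd4, an E3 ubiquitin ligase of the HECT class, read 1355, 1068 and 817 on probe set 1421955_a_at in TIMP3-/- sham, against 272, 409 and 308 in WT sham (log2 1.70 ± 0.28, adjusted p = 0.0450). The groups did not overlap, but the 2 other probe sets of the gene did not pass, and their log2 differences were -0.61 on the brightest and -0.38. Dnmt3a, a de novo DNA methyltransferase, read 236, 238 and 266 on probe set 1423066_at in TIMP3-/- sham, against 147, 154 and 121 in WT sham (log2 0.82 ± 0.14, adjusted p = 0.0475). The other 4 Dnmt3a probe sets gave -0.31, -0.29, 0.09 and 0.32, none of which passed. Jmy, a cofactor of p53 that also nucleates actin filaments, was dim on probe set 1451878_a_at, with 52.2, 68.3 and 50.8 in TIMP3-/- sham and 25.2, 27.2 and 26.5 in WT sham (log2 1.11 ± 0.18, adjusted p = 0.0433). Its brightest probe set gave -0.53 and another -0.01, so in Nedd4, Dnmt3a and Jmy 1 probe set passed and the others did not. Of the others, Dnmt3a 1423065_at (0.32) also had no overlap between the genotypes. These 3 genes and both probe sets without a symbol fall outside the naming rule, which takes a gene's brightest probe set, and were chosen after their values were seen.

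How firmly these rises stood differed between them. With any 1 of the 6 arrays left out, Timp3 passed in 6 of 6 fits, 1456319_at in 6 of 6 and 1427037_at in 4 of 6, failing without TIMP3-/- sham 1 (adjusted p = 0.063) and without TIMP3-/- sham 2 (adjusted p = 0.0999). Zbtb7a, Nedd4, Dnmt3a and Jmy passed in none of those 6 fits, with log2 differences that stayed at 0.95 to 1.01, 1.53 to 1.89, 0.71 to 0.89 and 0.97 to 1.18 and adjusted p between 0.0584 and 0.377. Without WT sham 3, 6 probe sets passed, 2 higher and 4 lower. In a fit of the 6 compared arrays alone, only the 4 Timp3 probe sets passed and all 6 rises were lost, with adjusted p of 0.115 for 1456319_at and for Zbtb7a and up to 0.393 for the others. With component 1 of the sham arrays as a covariate, Zbtb7a passed (0.96, adjusted p = 0.0447) and the other 5 rises did not, 1456319_at among them (1.80, adjusted p = 0.294). The component partly followed genotype, so this covariate can also take up genotype difference.

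**Figure D1:**
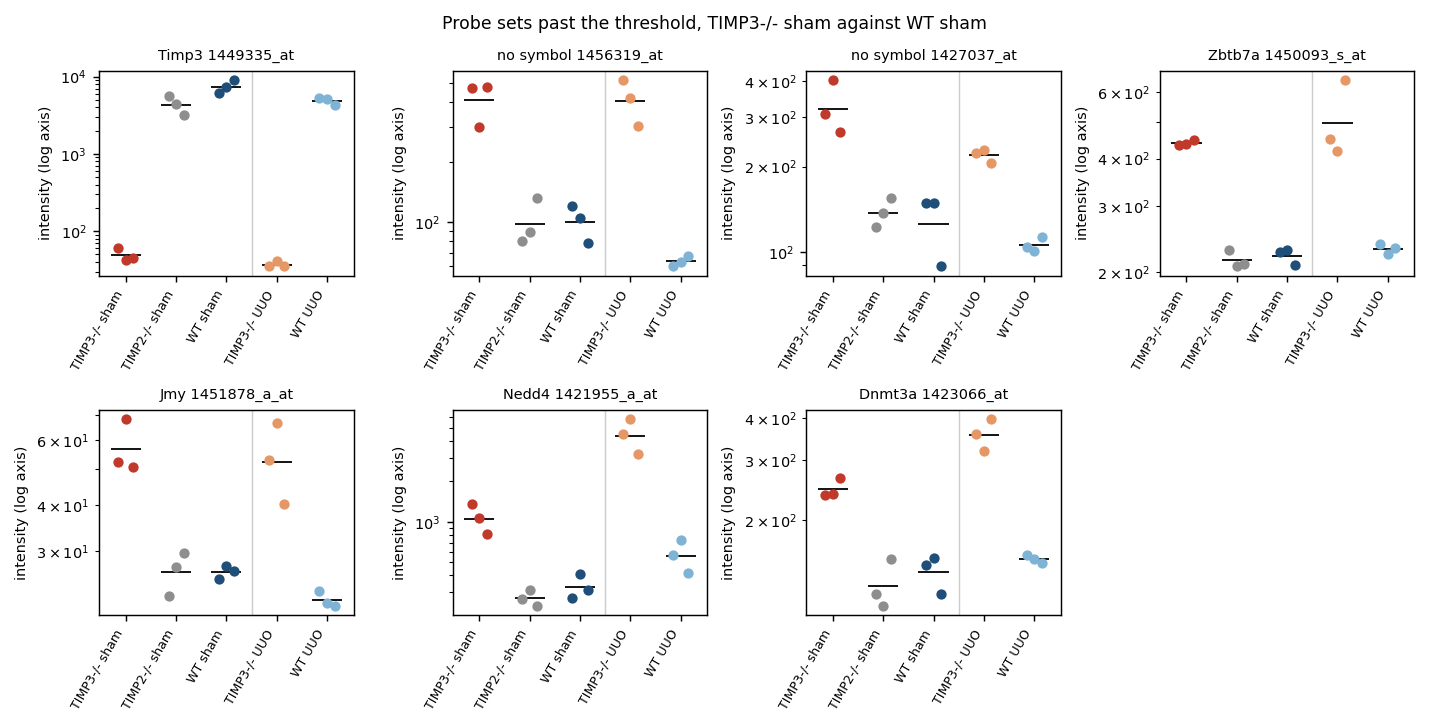
Intensity on a log axis of 1 Timp3 probe set and the 6 probe sets that rose, for every array of 5 groups; points are arrays, bars geometric means (n = 3). Every TIMP3-/- sham point of the 6 lies above every TIMP2-/- sham and WT sham point, and every TIMP3-/- UUO point above every WT UUO point. The 6 were chosen for their difference between TIMP3-/- sham and WT sham.

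The same 6 rises were then read in the UUO arrays, which share no array with the sham comparison and come from mice of the same genotypes. All 6 rose there too, against 160 of 22626 probe sets (0.707%) that passed in TIMP3-/- UUO against WT UUO. In all 6 the groups did not overlap, as in 9.06% of all probe sets in the higher direction. Both comparisons came from 1 model with 1 pooled spread per probe set, for Zbtb7a an SE of 0.14 in each. The UUO p-values are therefore not independent of the choice made after sham. Probe set 1456319_at read 519, 422 and 306 in TIMP3-/- UUO, against 59.8, 62.6 and 67.8 in WT UUO (log2 2.68, limma adjusted p = 6.05e-05). Zbtb7a read 451, 420 and 646 in TIMP3-/- UUO, against 237, 224 and 232 in WT UUO (log2 1.10, adjusted p = 0.00174). Nedd4 on 1421955_a_at reached 4545, 5807 and 3183 in TIMP3-/- UUO, against 566, 733 and 417 in WT UUO (log2 2.98, adjusted p = 6.40e-05), and its other probe sets, at 0.77 and 0.91, did not pass. Dnmt3a on 1423066_at had a log2 difference of 1.23 after UUO, Jmy on 1451878_a_at 1.24 and 1427037_at 1.05, with adjusted p between 0.000404 and 0.0200. A further Dnmt3a probe set, 1423065_at, passed after UUO at 0.83 (adjusted p = 0.0165), against 0.32 after sham. The difference between the operations, tested as an interaction, passed for none of the 6, with adjusted p between 0.167 and 0.736, and for 0 of all 22626 probe sets in limma, of which 5852 had an unadjusted p under 0.05.

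Against TIMP2-/- sham arrays, which share the TIMP3-/- arrays with the main comparison, all 6 probe sets were also higher and passed, among 17 of 22626 (0.0751%). In TIMP2-/- sham against WT sham, where 5 probe sets passed (0.0221%), none of the 6 did, and their log2 differences lay between -0.27 and 0.14. The 6 were chosen on these same TIMP3-/- sham arrays, so their rise against TIMP2-/- sham is a description and no further support.

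**Figure D2:**
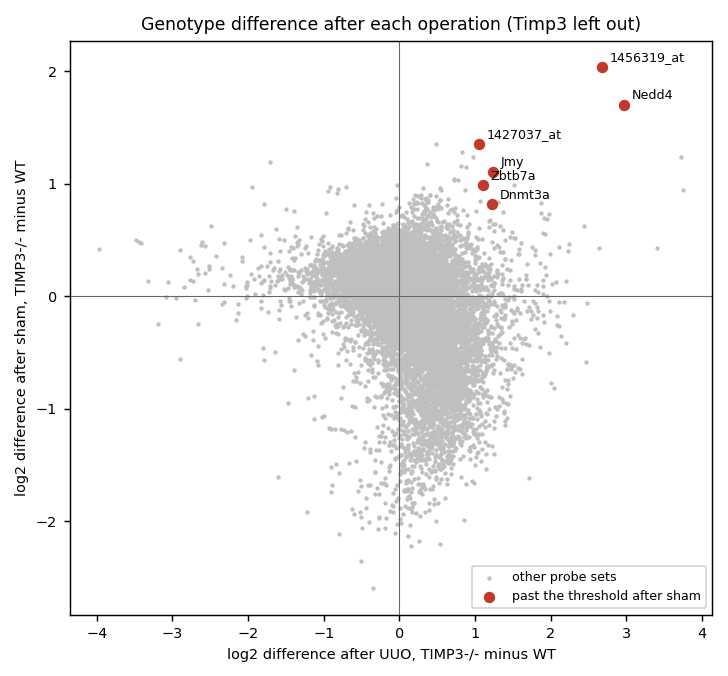
Log2 difference of TIMP3-/- minus WT for each probe set after sham (vertical) and after UUO (horizontal), Timp3 left out. The 6 labelled probe sets that passed after sham sit in the upper right, at 0.82 to 2.04 after sham and 1.05 to 2.98 after UUO.

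Other genes came near the threshold without passing it. Dgkq, a diacylglycerol kinase, read 428, 494 and 435 in TIMP3-/- sham, against 266, 214 and 217 in WT sham, with no overlap (log2 0.97 ± 0.16, limma adjusted p = 0.054), and it did pass when dim probe sets were left out (adjusted p = 0.0433). Wdfy3, a scaffold protein of selective autophagy, read 1070, 920 and 660 in TIMP3-/- sham, against 406, 511 and 398 in WT sham (log2 0.99 ± 0.19, adjusted p = 0.150). After UUO Wdfy3 rose, with 648, 1018 and 843 in TIMP3-/- UUO against 335, 238 and 300 in WT UUO (log2 1.51, adjusted p = 0.00174).

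Mgp, matrix Gla protein, an inhibitor of calcification made by smooth muscle and other mesenchymal cells, was bright on every array. It read 7614, 7913 and 8344 in TIMP3-/- sham, against 4444, 5093 and 3925 in WT sham (log2 0.83 ± 0.16, adjusted p = 0.145). TIMP2-/- sham kidneys read 3093 to 5341, and against them Mgp passed (log2 1.00, adjusted p = 0.0227). After UUO the genotypes had nearly the same Mgp level, 25541 to 31128 in TIMP3-/- UUO and 24504 to 26363 in WT UUO.

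The rest of the 15 genes with the smallest p on the higher side had log2 differences of 0.49 to 0.89 and none passed. They were Plp2, H2-Eb1, Pcp4l1, Angptl4, H2-Aa, Mrvi1, Zfp553, Cd209a, Ifngr2, Hddc2 and Nop56. Angptl4, an inhibitor of lipoprotein lipase, differed by 0.80 after sham and by -0.0037 after UUO, whereas Cd209a, a marker of dendritic cells, kept 0.53 of its 0.85 and Nop56, a nucleolar protein, 0.44 of its 0.49.

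On the lower side no gene but Timp3 passed. Amdhd1, an enzyme of histidine breakdown, read 19.02, 21.94 and 20.74 in TIMP3-/- sham, against 77.3, 68.9 and 46.3 in WT sham. Its difference of -1.61 ± 0.41 had an adjusted p of 0.472 in the main model, and it passed when the spread came from the 9 sham arrays alone (adjusted p = 0.0431). TIMP2-/- sham kidneys were at the WT level of Amdhd1 (54.2 to 73.5), and after UUO it read 18.97, 17.12 and 18.69 in TIMP3-/- UUO, against 39.01, 148.7 and 29.31 in WT UUO (log2 -1.60, adjusted p = 0.0798). WT UUO 2 stood far above the other WT UUO arrays. The TIMP3-/- intensities lay below the 25th percentile of their arrays after both operations.

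The other 13 of the 15 genes with the smallest p on the lower side did not pass. Slco1a1, an organic anion transporter of the proximal tubule, differed by -1.86, Tfrc, the transferrin receptor, by -1.37 and Gadd45a, a growth arrest and DNA damage gene, by -1.01. These were -1.29, -1.02 and -0.84 without WT sham 3. C1galt1c1, Vstm2a, Mettl9, Ankrd10, Larp1b, Npas2, Tasp1, Arntl, Jmy on its brightest probe set and Gpd2, the mitochondrial glycerol-3-phosphate dehydrogenase, differed by -2.11 to -0.47.

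Besides Timp3, no member of the TIMP family and none of the TIMP3 targets described here passed. Timp1, the inducible family member, read 129, 144 and 195 in TIMP3-/- sham, against 94.9, 94.5 and 68.5 in WT sham, with no overlap but a pooled spread that left it at log2 0.85 ± 0.52 (adjusted p = 0.527). Timp2 was at 1129 to 1274 in TIMP3-/- sham and 971 to 1475 in WT sham (log2 0.06). Timp4, a family member with little expression in kidney, and Reck, a membrane-anchored metalloproteinase inhibitor, differed by 0.14 and -0.03.

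Among proteases, 0 of 15 matrix metalloproteinase genes passed and none had an unadjusted p under 0.05 (4.53% of all probe sets were higher and 6.04% lower by that rule). Of their differences 14 of 15 were above 0, as were 8376 of 12393 over all genes. The median was 0.26 against 0.11 over all genes. Mmp2, gelatinase A, differed by 0.50 ± 0.37 and Mmp9, gelatinase B, by 0.25 ± 0.83. These SEs rest on the spread pooled over all 18 arrays, which for Mmp9 took in 1319 in TIMP3-/- UUO 1 and 1090 in WT UUO 2. Neither gene had overlap between the sham genotypes. Mmp9 was at 103 ± 6.9 in TIMP3-/- sham and 86.9 ± 6.83 in WT sham (SD, n = 3). Of the 15 genes, 5 had no overlap in the higher direction and 0 in the lower. Over all probe sets these shares were 9.86% and 4.72%. Mmp11 had the smallest p, with 229, 273 and 216 in TIMP3-/- sham and 185, 213 and 133 in WT sham. Adam17 read 250, 117 and 154 in TIMP3-/- sham, against 195, 247 and 358 in WT sham (log2 -0.65, adjusted p = 0.483), with overlap. Adam10 and Adam9, other sheddases, differed by -1.44 and -0.98, and Adam10 by -0.96 without WT sham 3.

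Transcripts downstream of the proteases were also described. Of 29 measured genes for ADAM17 and ADAM10 substrates none passed and the median was 0.09. At an unadjusted p under 0.05, 2 were higher, Notch1 (0.37) and Tnf, against 4.64% of all genes. Tnf, the cytokine shed by ADAM17, read 140, 168 and 167 in TIMP3-/- sham, against 122, 129 and 140 in WT sham (log2 0.28 ± 0.12, adjusted p = 0.472), with the lowest TIMP3-/- value just under the highest WT value. Of 14 genes of the TNF and NF-kappaB pathway none passed. At an unadjusted p under 0.05, 4 (Traf1, Tnf, Nfkbie and Traf2) were higher, against 4.64% of all genes. That count was 1 of 14 with a median of 0.13 without WT sham 3, where 1.85% of all genes were higher by the same rule. For 25 VEGF and endothelial genes the median was 0.23 and 1 was higher and 1 lower by that rule, Flt4 (0.43) and Nrp1 (-0.81).

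A group in which every measured member had an unadjusted p under 0.05 was antigen presentation. By that rule 4.64% of all genes were higher, and the median over all genes was 0.11. All 9 measured MHC class I and II genes were higher in TIMP3-/- sham, with log2 differences of 0.35 to 0.83 and a median of 0.58, while none passed after adjustment. In 8 of the 9 the genotypes did not overlap, as in 9.86% of all probe sets in the higher direction. MHC class II molecules carry peptides to CD4 T cells on the surface of macrophages, dendritic cells and B cells, and class I molecules are made by nearly all cells. In whole kidney RNA, more cells of a type and more RNA per cell cannot be told apart.

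Class II genes share an upstream Y box, the reverse CCAAT element bound by NF-Y, which works with a neighbouring X box to recruit the coactivator CIITA. The stretch from 110 to 11 bases before the annotated start is shown for both class II genes with the smallest p, from RefSeq (GRCm38.p6), with GATTGG or its reverse complement CCAATC in capitals. H2-Aa lies at chr17:34287834-34287933 on the minus strand and H2-Eb1 at chr17:34305757-34305856 on the plus strand.
H2-Aa: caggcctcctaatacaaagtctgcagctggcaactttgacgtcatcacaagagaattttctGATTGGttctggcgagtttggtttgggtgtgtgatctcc
H2-Eb1: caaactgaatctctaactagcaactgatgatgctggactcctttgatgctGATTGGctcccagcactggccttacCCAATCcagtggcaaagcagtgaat
The motif occurs on either strand in the same 100 bases of 8.83% of 32851 promoter windows, so its presence here is a description only.

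H2-Eb1, a class II beta chain, read 3520, 4864 and 4423 in TIMP3-/- sham, against 2575, 2816 and 1874 in WT sham (log2 0.83 ± 0.17, adjusted p = 0.212). H2-Aa, a class II alpha chain, read 6107, 8086 and 6908 in TIMP3-/- sham, against 4975, 4988 and 3536 in WT sham (log2 0.65 ± 0.15, adjusted p = 0.376). Ciita, the class II coactivator itself, was dim, with 121, 148 and 145 in TIMP3-/- sham and 96.1, 90.0 and 90.5 in WT sham. Every array of these 3 genes was higher in TIMP3-/- sham than in WT sham, and TIMP3-/- sham 1 was the lowest of its group each time.

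The remaining members were H2-Ab1 (0.72), H2-DMa, a class II peptide loader (0.79), Cd74, the invariant chain (0.51), H2-D1 (0.44), H2-K1 (0.35) and B2m, the class I light chain (0.35). H2-K1 was the member whose groups overlapped. Without WT sham 3 the median was 0.50, with 7 of 9 at an unadjusted p under 0.05, and without TIMP3-/- sham 1 it was 0.68, with 9 of 9. In those fits 1.85% and 8.86% of all genes were higher by the same rule. The list's mean log2 value, each gene centred over the 9 sham arrays, was 0.02, 0.43 and 0.34 in TIMP3-/- sham and -0.24, -0.19 and -0.52 in WT sham, and it moved with the first component of the sham arrays. With the component as a covariate, the median was 0.27. In TIMP2-/- sham against the same WT sham arrays these genes had a median of 0.44, and after UUO TIMP3-/- minus WT had a median of 0.16.

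**Figure D3:**
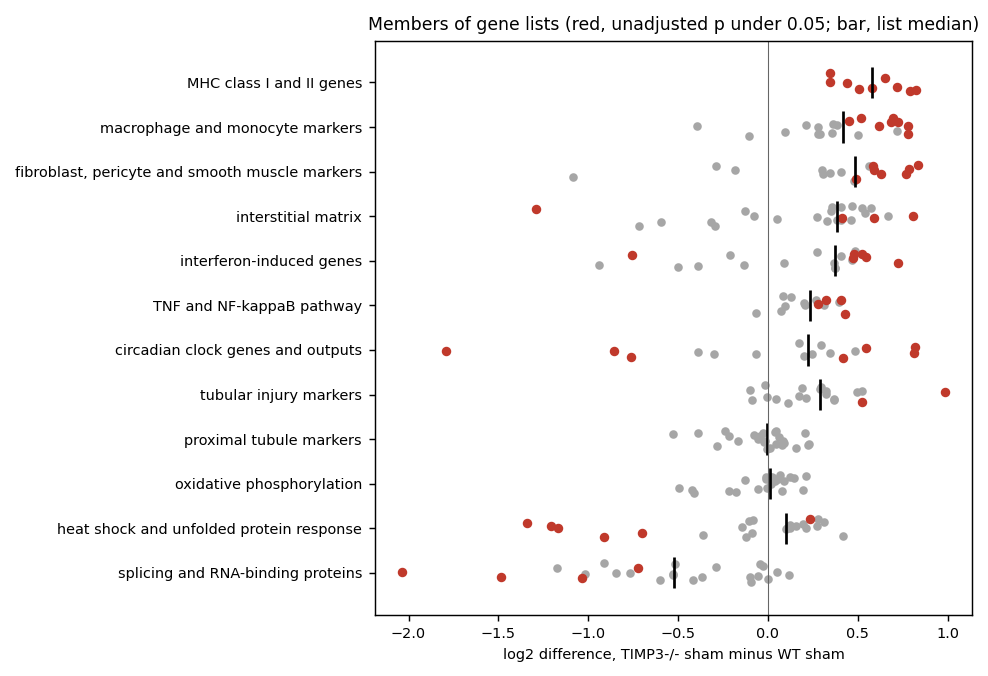
Log2 difference of TIMP3-/- sham minus WT sham for each measured gene of 12 lists; red points have an unadjusted p under 0.05 and the bar is the list median. All 9 MHC genes lie right of 0, and proximal tubule and oxidative phosphorylation genes lie around 0.

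Markers of macrophages and monocytes had smaller and less even differences. None of 20 passed, 18 were above 0, as were 8376 of 12393 genes, and the median was 0.42. At an unadjusted p under 0.05, 8 were higher, against 4.64% of all genes. The 8 were C1qa, C1qb and C1qc, the chains of complement C1q, Adgre1 (F4/80), Tyrobp, Cd14, Ly86 and Fcer1g. C1qb read 964, 1421 and 1285 in TIMP3-/- sham, against 773, 861 and 524 in WT sham, and Adgre1 196, 259 and 198 in TIMP3-/- sham, against 150, 135 and 110 in WT sham, both without overlap. Summed over the list, levels were 10960 to 14010 in TIMP3-/- sham and 7542 to 10320 in WT sham. Without WT sham 3 the median was 0.41, and 2 of 20 were higher at an unadjusted p under 0.05, against 1.85% of all genes in that fit.

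Fibroblast, pericyte and smooth muscle markers included Mgp. None of 16 passed and the median was 0.48, against 0.11 over all genes. Of the 16 differences 13 were above 0, as were 8376 of 12393 over all genes, and the lowest was -1.08. At an unadjusted p under 0.05, 7 were higher, against 4.64% of all genes. Without WT sham 3 the median was 0.38 with 3 of 16 higher, against 1.85% of all genes. Acta2, smooth muscle actin, read 2708, 3128 and 2555 in TIMP3-/- sham, against 1462, 1961 and 1473 in WT sham (log2 0.79 ± 0.30, adjusted p = 0.472). Tagln (0.63), Notch3 (0.59), Pdgfrb (0.58), Cspg4 (0.49) and S100a4 (0.77) were the others. Acta2 and Tagln had like differences after UUO, 0.73 and 0.70, with the pericyte markers Notch3 and Pdgfrb at 0.37 and 0.29.

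Interstitial matrix genes had a median of 0.39 and none passed. At an unadjusted p under 0.05, 3 of 25 were higher and 1 lower, against 4.64% and 5.88% of all genes. Without WT sham 3 the median was 0.31 with 1 of 25 higher, against 1.85% of all genes. Col1a1, a chain of type I collagen, read 313, 377 and 352 in TIMP3-/- sham, against 216, 218 and 164 in WT sham (log2 0.81 ± 0.38, adjusted p = 0.472). Col3a1 differed by 0.59 and Bgn, biglycan, by 0.41, whereas Ogn, osteoglycin, differed by -1.29. Basement membrane genes had a median of 0.17, with Col4a3 lower at -0.93. Tgfb1 read 122 to 182 in TIMP3-/- sham and 89.9 to 131 in WT sham (log2 0.46, adjusted p = 0.498), and its target Ccn2, connective tissue growth factor, 2718 to 3063 in TIMP3-/- sham and 1327 to 2411 in WT sham (log2 0.70).

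No tubular injury marker passed. Lcn2, the injury marker NGAL, read 318, 289 and 245 in TIMP3-/- sham, against 127, 206 and 111 in WT sham (log2 0.99 ± 0.34, adjusted p = 0.472), and was also higher in TIMP2-/- sham (0.75). Havcr1, KIM-1, read 216, 194 and 212 in TIMP3-/- sham, against 139, 150 and 143 in WT sham (log2 0.53 ± 0.21, adjusted p = 0.472), and TIMP2-/- sham lay at the WT level (-0.03). In neither gene did TIMP3-/- sham overlap WT sham. The median of 19 injury markers was 0.29, or 0.20 without WT sham 3, where Havcr1 was at 0.52 and Lcn2 at 0.80.

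Nephron identity showed little difference. Of 25 proximal tubule markers 0 had an unadjusted p under 0.05, with a median of -0.01, and 24 oxidative phosphorylation genes had a median of 0.01. Medians were 0.03 for principal cells, 0.13 for intercalated cells, 0.09 for podocytes and mesangium and -0.04 for the loop and distal tubule. They were -0.12, -0.08, 0.0038 and -0.09 without WT sham 3, so the sign for principal and intercalated cells turned with that array. In that segment Calb1, the calcium buffer of the distal tubule, differed by -1.09 in TIMP3-/- sham, by -1.18 in TIMP2-/- sham and by -1.13 in TIMP3-/- UUO against WT UUO.

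Interferon-induced genes were mixed, with 5 of 19 higher and Ifit1 lower at an unadjusted p under 0.05, or 2 higher and 1 lower without WT sham 3. Over all genes 4.64% were higher and 5.88% lower, or 1.85% and 0.96% without WT sham 3. Psmb9, an immunoproteasome subunit, differed by 0.72, Ifi27l2a by 0.54 and Ifit1 by -0.76. Among 19 lymphocyte and NK markers the median was 0.24, 15 were above 0 and the lowest was -0.91. At an unadjusted p under 0.05, 2 were higher, against 4.64% of all genes. They were Cd79b, a B cell receptor chain (0.62), and Gzma, granzyme A (0.46). Chemokines and cytokines had a median of 0.26, and Ccl5, a T cell attractant, differed by 0.90. No member of these lists passed.

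Clock genes differed in both directions, 4 of 16 higher and 3 lower at an unadjusted p under 0.05, or 2 and 2 without WT sham 3. By that rule 4.64% of all genes were higher and 5.88% lower, or 1.85% and 0.96% without WT sham 3. Per1, a repressor of the clock, read 413, 585 and 484 in TIMP3-/- sham, against 269, 360 and 220 in WT sham, and Dbp, an output gene, 4104, 5450 and 4402 in TIMP3-/- sham, against 2331, 3586 and 2179 in WT sham. Arntl (BMAL1), the activator of the loop, read 139, 82.8 and 104 in TIMP3-/- sham, against 194, 167 and 181 in WT sham. Genotypes did not overlap in these 3 genes, and none passed (adjusted p = 0.472). Per3 (0.54) and Tef (0.42) were also higher, and Npas2 (-0.86) and Nr1d2 (-1.79) lower. In TIMP2-/- sham against the same WT arrays, Per1, Dbp and Arntl differed by 0.90, 1.17 and -0.83, and after UUO TIMP3-/- differed from WT by -0.23, -0.59 and 0.39. The labels do not give the hour at which kidneys were taken, and its part was not tested.

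Splicing and RNA-binding genes had 22 of 24 differences below 0 with a median of -0.52, and none passed. At an unadjusted p under 0.05, 4 were lower, as were 5.88% of all genes. In 6 the groups did not overlap in the lower direction, as in 4.72% of all probe sets. Rbm39, a splicing factor, read 229, 109 and 78.3 in TIMP3-/- sham, against 449, 326 and 922 in WT sham. WT sham 3 was the highest array and TIMP3-/- sham 1 the highest of its genotype. Without WT sham 3 the median was -0.28 with 0 of 24 at an unadjusted p under 0.05, and with the component as a covariate it was -0.0011. The chaperone Hsp90aa1 read 2270, 1249 and 1108 in TIMP3-/- sham, against 2673, 2785 and 6891 in WT sham. At an unadjusted p under 0.05, 5 of 23 heat shock and unfolded protein genes were lower, or 1 without WT sham 3. By that rule 5.88% of all genes were lower, or 0.96% without WT sham 3. Of 4 sex-linked genes, the Y-linked Eif2s3y, Uty and Kdm5d were lower (-1.33, -1.10 and -0.80) at an unadjusted p under 0.05. The count was 0 of 4 and the list median -0.66 without WT sham 3, against -0.95 with it, and TIMP2-/- sham minus the same WT arrays had a median of -0.84. Malat1, a nuclear RNA, read 5399, 1943 and 1937 in TIMP3-/- sham, against 361, 964 and 4410 in WT sham, a difference of 1.24 (adjusted p = 0.527) that ranged over 0.40 to 2.21 with an array left out, the highest without WT sham 3. Its other 4 probe sets gave 0.94, 0.43, -0.41 and -0.45.

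**Figure D4:**
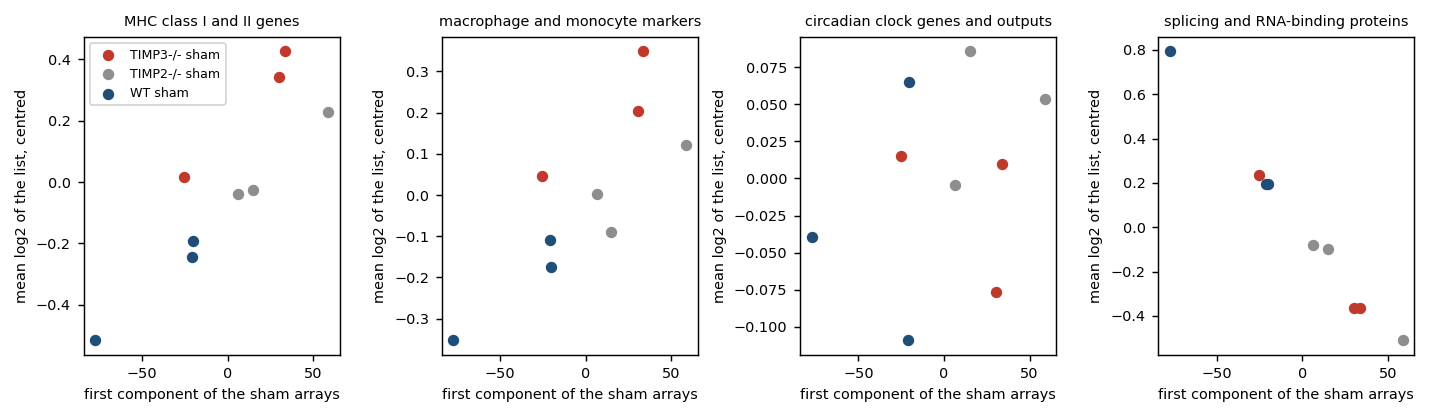
Mean log2 value of 4 gene lists, each gene centred over the 9 sham arrays, against the first component of those arrays; each point is an array. Splicing genes are lower where the component is higher, and MHC values run from -0.52 in WT sham 3 to 0.43 in TIMP3-/- sham 2.

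Markers of tissue that could come along with a kidney gave small medians. These were 0.11 for adrenal, 0.05 for adipocyte, 0.14 for urothelium, 0.11 for skeletal muscle, 0.06 for hepatocyte, 0.14 for pancreas and spleen and 0.20 for red cell transcripts, and none of their members passed. Adipocyte transcripts summed to 6634 to 10540 in TIMP3-/- sham and 9285 to 20190 in WT sham.

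A gene-targeted allele can bring along the chromosome around it, though the labels do not say how this allele was made. Genes near Timp3 on chromosome 10 were therefore read in the order of the RefSeq table. Of the 10 measured genes on each side, none passed. Syn3, the synapsin gene in whose intron Timp3 lies, read at a log2 difference of 0.09, and the other neighbours lay between -0.83 and 0.38, except Hsp90b1, next on the other side, at -1.21 (adjusted p = 0.472). Hsp90b1 also differed by -1.14 in TIMP2-/- sham against the same WT arrays, and by 0.54 after UUO. It read 4451 in WT sham 3, against 1848 and 2253 in WT sham 1 and 2. Zbtb7a lies on the same chromosome, 40 measured genes from Timp3, and Amdhd1 28 measured genes from it on the other side.

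Without Timp3, 54 of 560 measured genes of chromosome 10 (9.64%) had an unadjusted p under 0.05, against 1246 of 11814 genes (10.5%) on other chromosomes. Within 100 measured genes of Timp3 on each side the share was 22 of 200 (11%). Genes below 0.05 with the same sign both after sham and after UUO numbered 3 of those 200 (1.5%), Zbtb7a, Amdhd1 and Fgd6. Over all of chromosome 10 they numbered 4 of 560 (0.714%), with Mical1 farther away, against 63 of 11814 (0.533%) on other chromosomes. No test was made of these small counts. The part of linked sequence differences, including any that change how a probe binds, was not tested.

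**Figure D5:**
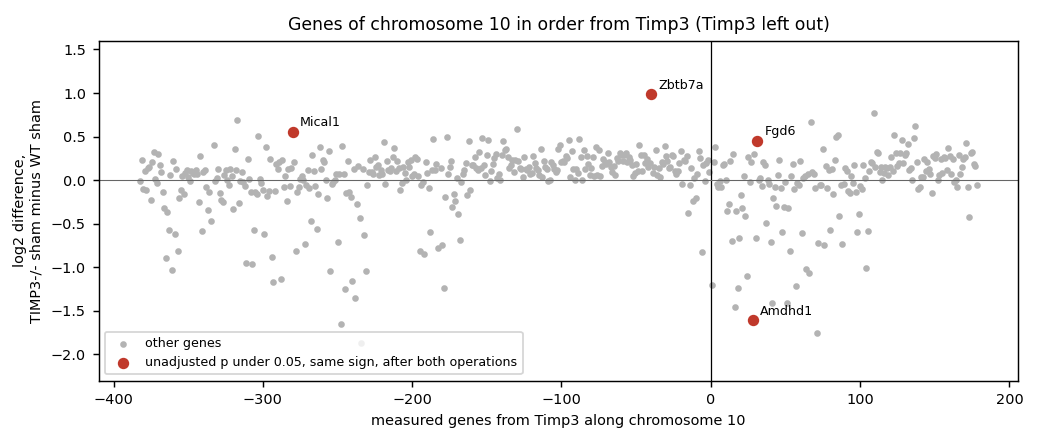
Log2 difference of TIMP3-/- sham minus WT sham for measured genes of chromosome 10, placed by the number of measured genes from Timp3, which is left out. Red genes had an unadjusted p under 0.05 and the same sign after sham and after UUO; Zbtb7a and Amdhd1 lie 40 and 28 genes from Timp3.

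Over the whole array, differences shared by both operations were few. Of 12392 genes besides Timp3, 1303 had an unadjusted p under 0.05 after sham and 2566 after UUO (of all probe sets, 20.5% did after UUO). Genes below 0.05 in both numbered 137, of which 67 had the same sign and 70 the opposite sign. The 67 genes were 5.14% of those below 0.05 after sham and 2.61% of those after UUO, with 51 higher and 16 lower.

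Those 67 genes were chosen for this pattern after their values were seen, and only Zbtb7a passed after sham. The 5 of the 51 with the highest difference after sham were Wdfy3 (0.99), Zbtb7a (0.99), Dgkq (0.97), Ms4a7 (0.94) and Cd209a (0.85), at 1.51, 1.10, 0.53, 0.86 and 0.53 after UUO. Nnt, the mitochondrial transhydrogenase that is mutated in C57BL/6J mice, read 3101, 3004 and 2896 in TIMP3-/- sham, against 3444, 5106 and 4347 in WT sham, with no overlap (log2 -0.50 after sham and -0.81 after UUO, adjusted p = 0.472 and 0.0531).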

How the data were processed

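Total RNA of frozen kidneys was hybridised to 18 Affymetrix arrays, 3 per group in 6 groups, grouped by title. The deposited values are linear intensities, made with RMA per the submitters' processing notes; no source used here gives the RMA version or the return to a linear scale. RMA equalises the arrays' distributions, so a shift of most transcripts at once would not be seen. Here 64 control probe sets were left out, intensities were put on a log2 scale, and 22626 probe sets were fitted with limma 3.58.1 in R 4.3.3 with a mean per group (12 residual degrees of freedom) and Benjamini-Hochberg adjustment; the threshold was 0.05. The code was tested on simulated data. The exact 3 against 3 permutation test cannot go below p = 0.1 and was not used.

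Symbols came from the platform annotation: 20380 probe sets have 1 symbol, 691 several and 1555 none. Each of 12393 genes was represented by its brightest probe set, judged by the mean of the 18 arrays, and 12377 matched RefSeq. The members and the 47 gene lists were chosen with earlier results of these data known. Named genes were up to 15 in each direction, first those that passed without overlap and then those with the smallest p, a fixed set (Timp1, Timp2, Timp3, Timp4, Reck, Adam17, Tnf, Mmp2, Mmp9, Tgfb1, Col1a1, Havcr1 and Lcn2), the 10 measured neighbours of Timp3 on each side, and in each list up to 6 members that passed or else the 2 with the smallest p; other names were chosen after their values were seen. Alternatives were other samples in the fit, a replicate block, leaving out each array, filters on dim or cross-hybridising probe sets, an added 50 units, repeated quantile normalization, array weights, a trended robust prior and a component covariate. Same-numbered sham arrays were not treated as pairs in the main model.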

Additional observations from a re-analysis of the deposited data

How the results depend on the processing

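The 4 Timp3 probe sets passed under every alternative that tested them. Probe sets past the threshold numbered 10 in the model as reported, 4 (0 higher, 4 lower) with the 6 compared arrays alone, 8 (3 and 5) with the 9 sham arrays, and 5 to 6 (1 to 2 and 4) with each array left out. There were 2 (1 and 1) with 1 probe set per gene, where 12393 were tested, and 9 or 10 with suffixed or dim probe sets left out, 50 units added, quantile normalization repeated or a trended robust prior. Array weights gave 2001 (633 and 1368), but their estimation did not converge and gave WT UUO 1 a weight of 66.3. With the first component of the sham arrays as a covariate, chosen after seeing the data, there were 6 (1 and 5), Zbtb7a and Amdhd1 (log2 -1.97, adjusted p = 0.00257) besides Timp3. That component partly followed genotype, and with it the median log2 difference over all probe sets was -0.0052, against 0.09 in the main model.

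The replicate block gave 9 calls (5 and 4), and 4 (0 and 4) with the 6 arrays alone. Deviations of same-numbered arrays from their group means correlated at -0.562, 0.437 and -0.432. Those of differently numbered arrays correlated at -0.663 to 0.701, so these values cannot show whether the numbers pair the arrays.

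Of 121 named genes, 21 changed sign under an alternative, none past the threshold either way. Timp2 was -0.0886 with array weights and -0.0733 with the component covariate, Slc26a4 -0.0211 and -0.118, and Upk3b was -0.126 with weights. With an array left out, Timp2 ranged over -0.0661 to 0.236, Reck over -0.175 to 0.130, Slc26a4 over -0.0810 to 0.255 and Upk3b over -0.0400 to 0.653, with the signs of Timp2 and Slc26a4 turned without WT sham 3, of Upk3b without TIMP3-/- sham 1, and of Reck without WT sham 2 or TIMP3-/- sham 3. Reck was 0.0125 with repeated quantile normalization, and Jmy 0.190 as the mean of its probe sets. With the component, Adam10 was 0.0675, Adam9 0.0804, Car2 0.0558, Synpo -0.0618, Itga8 0.0759, Cpa3 -0.0553, Ndufs1 0.0785, Cycs 0.0178, Ier2 -0.0200, Hspd1 0.0032, Srxn1 -0.0016, Idi1 0.0166, Hmgcs1 0.0092, Lpl 0.0450, Fabp4 0.110 and Ide 0.184. The causes were not tested. With 3 arrays per group, small differences are not resolved, and Jmy and Amdhd1 lie near background.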
